A study of Mus musculus with 2 samples.

Results

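The cytosolic ribosomal protein genes of the mouse embryonic heart were read from the gene tables of both libraries. A gene was a member when its identifier maps to a protein-coding gene whose symbol is that of a large subunit protein (Rpl or Rplp) or a small subunit protein (Rps or Rpsa), with the Rps6k kinases left out. This gave 83 members of 43346 mouse genes, 51 for the large and 32 for the small subunit. Of these, 77 are core members and 6 are diverged paralogues with names of their own, namely Rpl3l, Rpl7l1, Rpl10l, Rpl22l1, Rpl39l and Rps27l.

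The tissue was whole heart of B6NCrl embryos at embryonic day 11.5, with both sexes mixed, and 2 total RNA libraries formed the only group. Replicate 1 came from a pool of 109 embryos, and replicate 2 is recorded as another biosample under the same donor identifier, without a number of embryos. All values are therefore from 1 strain, 1 stage and no treatment, with no contrast between conditions. Because 2 libraries cannot give an exact two-sided p below 0.5, no p is given, and a difference is set against the SD over the libraries, which may be partly technical.

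Cytosolic ribosomal proteins assemble with ribosomal RNA into the small subunit, which decodes mRNA, and the large subunit, which forms peptide bonds. Each protein is used in about equal number per ribosome, and most mammalian ones come from a single functional gene with many processed pseudogenes scattered over the genome. Their mRNAs typically begin with a tract of pyrimidines, through which their translation is tied to growth signalling. In growing embryonic tissue they are among the most abundant mRNAs.

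The start of several members is shown because this tract is the best-known shared feature of the class. Each line holds 15 bases before and 15 from the annotated start, on the strand of the gene, from RefSeq on GRCm38.p6. Capitals mark a run of at least 8 pyrimidines that touches the 10 bases on either side of the start. The first 6 are core members and the last 5 are paralogues, chosen after the sequences were seen.
Rpl35: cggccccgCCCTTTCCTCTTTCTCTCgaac
Rpl7a: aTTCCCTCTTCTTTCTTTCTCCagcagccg
Rpl15: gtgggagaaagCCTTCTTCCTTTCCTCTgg
Rpl28: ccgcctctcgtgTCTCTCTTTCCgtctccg
Rpl38: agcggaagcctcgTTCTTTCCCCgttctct
Rplp2: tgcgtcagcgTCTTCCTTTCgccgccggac
Rpl22l1: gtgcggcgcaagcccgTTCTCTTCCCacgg
Rps27l: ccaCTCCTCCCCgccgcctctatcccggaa
Rpl7l1: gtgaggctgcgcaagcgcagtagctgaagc
Rpl3l: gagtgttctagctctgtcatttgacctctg
Rpl10l: tttggcctccattttgcggctggcggtggg

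The longest of these runs had 21 bases in Rpl7a (chr2:26910792-26910821, plus strand) and 18 in Rpl35 (chr2:39005117-39005146, minus strand). Rpl22l1 and Rps27l have a run, and the windows of Rpl7l1, Rpl3l and Rpl10l hold none of that length. Of the 63 members in the RefSeq table, 29 (46.0%) had such a run, against 16.0% of 16317 protein-coding genes and 17.1% of the 9544 of them at 1 TPM or more in both libraries. Another form, a C at the annotated start followed by 4 pyrimidines, was met by 13 members (20.6%) and by 2.73% of protein-coding genes. Annotated starts may lie some bases from the true ones, and 53 members had a run of at least 8 within 50 bases on either side, against 40.9% of genes.

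Expected counts, the authors' estimated reads per gene, summed to 37617442 in replicate 1 and 27642765 in replicate 2. Levels are in TPM, a length-corrected abundance scaled to the same total over all rows of a library, as mean ± SD (n = 2). The cardiac label was checked on 8 cardiomyocyte markers, all above 100 TPM in both libraries, with Actc1 the highest at 9392 ± 340. Among the marker lists, the largest median log2 ratio between libraries was that of liver and yolk sac markers, whose 4 genes summed to 233 TPM in replicate 1 and 65.6 in replicate 2. In such bulk tissue, fewer cells of a type and less RNA per cell cannot be told apart.

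Nearly every member was abundant. Of the 83 members, 80 reached 1 TPM in each library, where 56.4% of nuclear protein-coding genes were, and 76 were at 100 TPM or more, a level reached by 5.33% of those genes. The members' median was 518 TPM in replicate 1 and 474 in replicate 2 (496 ± 31.2), against 2.92 ± 0.0212 for all nuclear protein-coding genes and 15.9 ± 0.403 for those detected. The quartiles of the 80 detected members were 326 and 700 TPM. Together the members held 4.28% ± 0.213 of TPM and 1.93% ± 0.149 of expected counts. The 77 mitochondrial ribosomal protein genes, which build the separate ribosome of the mitochondrion, were all detected too, at a median of 82.6 ± 1.69 TPM.

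**Figure D1:**
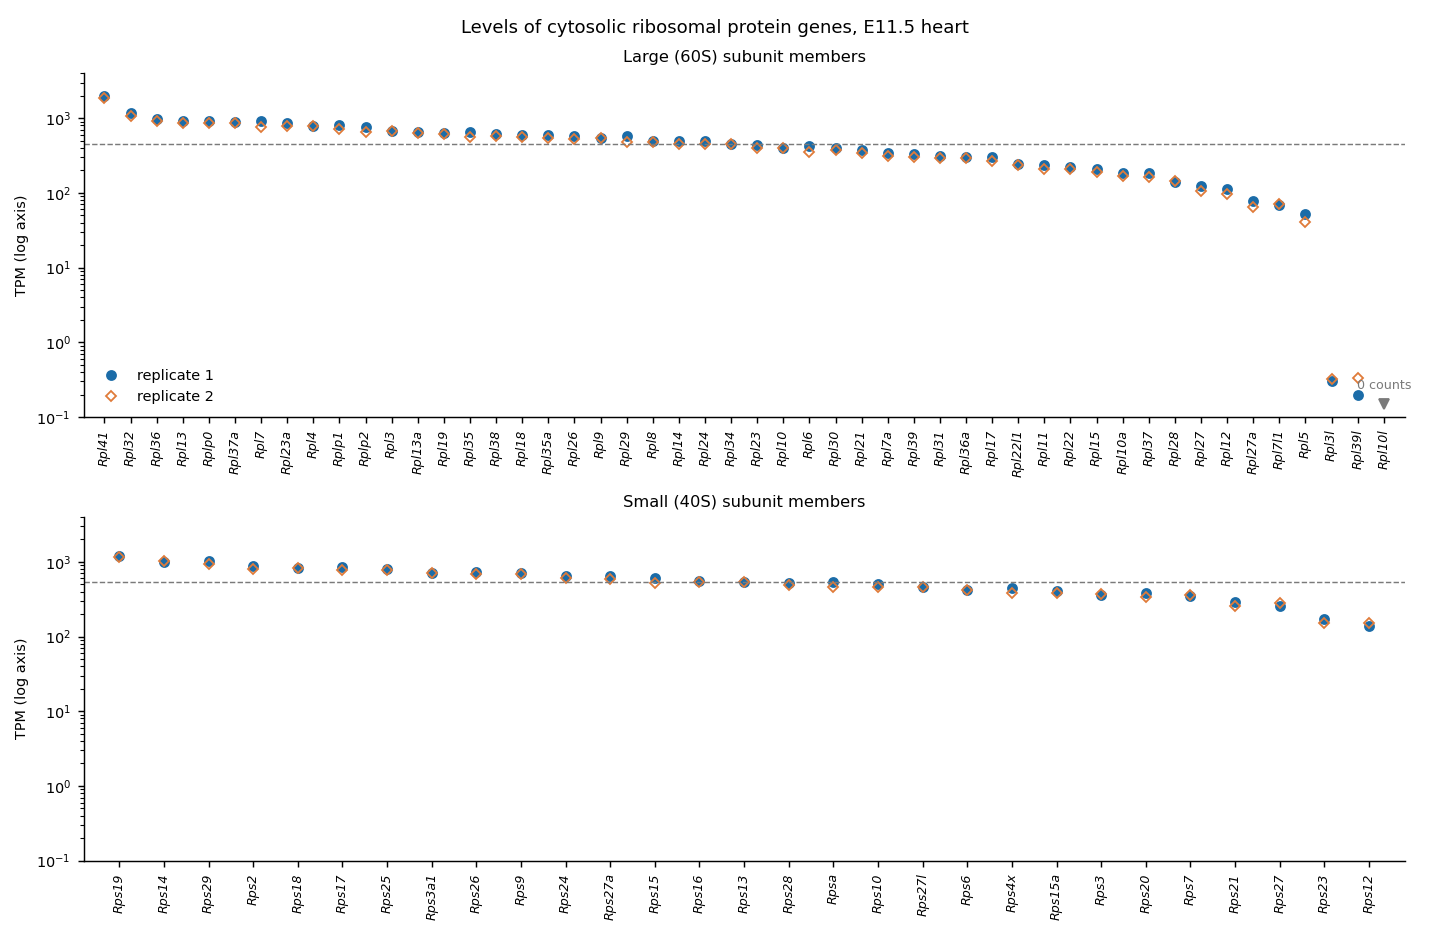
TPM of 79 members (log axis) in replicate 1 (filled circles) and replicate 2 (open diamonds), ordered by mean level within each subunit, with the median over all members of the subunit as a dashed line. All small subunit members lie above 100 TPM, while the large subunit reaches from 1913 TPM for Rpl41 to 0 counts for Rpl10l.

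Rpl41 was the highest member, with 1964 TPM in replicate 1 and 1861 in replicate 2, and the 29th of all nuclear protein-coding genes. It lies on chromosome 10 from 128548114 to 128549305 (GRCm38) and encodes a very small, basic peptide of the large subunit. Its coding sequence of 78 bases, from GENCODE M21, is printed because it is so short and so rich in basic codons. Capitals mark the 17 of its 25 amino acid codons that encode lysine or arginine.
Rpl41: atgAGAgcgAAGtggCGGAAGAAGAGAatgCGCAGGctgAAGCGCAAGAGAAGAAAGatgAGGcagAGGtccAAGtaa

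Rps19, mutated in Diamond-Blackfan anaemia, followed with 1188 TPM in replicate 1 and 1147 in replicate 2. Rpl32 had 1159 and 1057 TPM. Rps14, a gene lost in the 5q deletion syndrome, had 1002 and 1015. Rps29, Rpl36, Rpl13, Rplp0 and Rpl37a were also among the 10 highest, with means from 874 to 976. The lower value of Rpl41 (1861) stood above every value of the others, whereas neighbours in the order after it overlapped. That order also depends on how reads shared with near-identical copies, described below, were divided. With those copies added, the mean was 1679 TPM for Rps29 and 1529 for Rpl13, above 1178 for Rps19, while Rpl41 stayed the highest (1913). The proteins of the stalk, which recruits translation factors to the large subunit, were at like levels: Rplp0 had 888 ± 34.2, Rplp1 765 ± 66.5 and Rplp2 701 ± 74.0 TPM.

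Around the median stood Rps28 (502 ± 25.3), Rpsa (502 ± 51.0), the gene of the laminin receptor protein of the small subunit, and Rpl8 (486 ± 17.5), whose order is not resolved by the libraries. Rpl38, known for tissue-specific patterning defects in mutant mice, had 595 ± 33.9. Rps6, the substrate of S6 kinase, had 415 TPM in both libraries. Rpl11, which with Rpl5 and the 5S ribosomal RNA binds Mdm2 and thereby stabilises p53, had 240 TPM in replicate 1 and 207 in replicate 2. With near-identical copies added, the mean was 939 TPM for Rps28, 826 for Rps6, 791 for Rpl38 and 437 for Rpl11. For Rpsa and Rpl8 it was 518 and 486, and the members' median became 609.

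The lowest detected member was Rpl5 (chromosome 5, 107900502 to 107909005), with 52.5 TPM in replicate 1 and 41.1 in replicate 2. Next came the paralogue Rpl7l1 (69.3 ± 1.83), then Rpl27a (72.0 ± 9.16), Rpl12 (105 ± 12.4), Rpl27 (114 ± 10.8), Rpl28 (144 ± 2.33) and Rps12 (146 ± 10.5). Rpl5 was below each of them in both libraries, and 40.9-fold below Rpl41. Of these 7 lowest members, all but Rpl7l1 had over 50% of the level summed with near-identical copies listed at those copies, as described next.

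Reads of most members can also match pseudogenes. By alignment to GENCODE M21 transcripts, 752 other genes were assigned to a member (at least 90% identity over at least 50% of the copy), and 79 members had 1 or more, up to 60 for Rpl21. Most were silent or nearly so: 304 had 0 counts in both libraries, and 113 were at 1 TPM or more. However, 23 copies were listed at 100 TPM or more in both libraries, all of them at least 99% identical to their member, and 19 of them 100% identical over the aligned part. Of these 23, 21 are annotated as pseudogenes, 15 hold the whole coding sequence of the member without a difference, and 14 were listed at a higher TPM than the member itself. Copies held 20.4% ± 0.271 of the TPM summed over members and copies.

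Rpl5 is the clearest case. Its copy Gm15500 (chromosome 7, 114705217 to 114706235), a transcribed processed pseudogene, carries all 894 coding bases of Rpl5 with 0 differences. It was listed at 527 TPM in replicate 1 and 502 in replicate 2, against 52.5 and 41.1 for Rpl5. Copies thus took 91.0% and 92.4% of the summed level, which was 562 ± 26.1 TPM and close to the middle of the set. The share of Rpl5 itself is therefore uncertain.

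The same held for 13 members with over 50% of the summed TPM in copies in both libraries, among them Rpl5, Rpl27, Rps23, Rpl27a, Rpl15, Rpl28, Rpl37, Rps27, Rpl12, Rps12, Rpl31 and Rpl10a. Their own levels had a median of 163 TPM, and their sums with copies a median of 703. For Rps23 (chromosome 13, 90922958 to 90924950) the copy Rps23-ps1 was listed at 883 and 791 TPM, and Rps23 at 173 and 154. For Rpl15 the copy Rpl15-ps3 stood at 656 and 599 beside 209 and 192, and for Rpl27 a pair of copies, Rpl27-ps3 and Gm11518, at 370 ± 7.22 and 348 ± 18.3 beside 114 ± 10.8. A further 13 members had over 10% in copies in both libraries without passing 50% in both, among them Rps29, Rpl13, Rps28, Rpl38, Rps13, Rps6, Rpl10, Rps7 and Rpl11. Of pseudogenes that carry the member's own name alone, 13 members had over 10%.

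**Figure D2:**
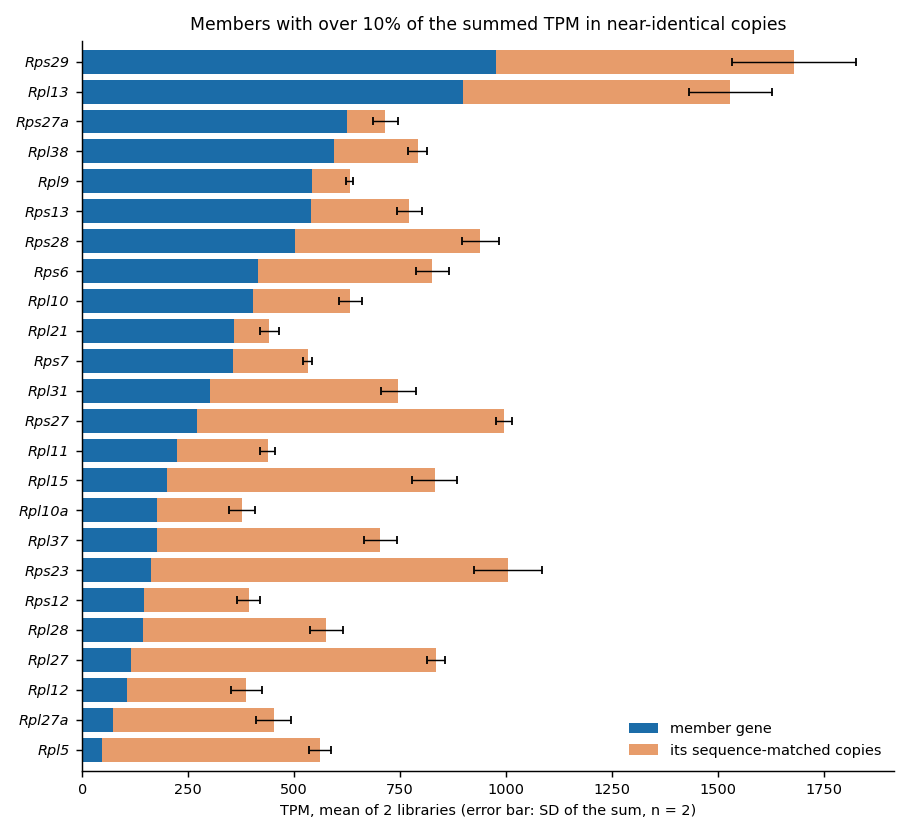
Mean TPM of 24 of the 26 members with over 10% of the summed TPM in sequence-matched copies in both libraries (blue) and of those copies (orange), with the SD of the sum (n = 2). Rpl5, the lowest bar of the member genes, reaches a sum of 562 TPM.

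Of the 20 lowest detected members, 12 had over 50% of the summed TPM in copies, and of the 20 highest none did. The member's own TPM is part of that sum, so a low member tends to a high share by construction. The 53 members with at most 10% in copies in both libraries had a median of 571 TPM, or 584 with copies added. Adding the copies brought the SD of log2 TPM across the 80 detected members from 0.99 to 0.71. Among core members it went from 1.08 to 0.63 in the large subunit and from 0.72 to 0.58 in the small. Where the added copies fall mainly on low members, a narrower spread follows in part from the addition itself. The authors' posterior SD of the count, their model's own uncertainty from shared reads, was 0 for Rpl32, 0.101% of the count for Rpl41, 3.02% for Rpl5 and 7.48% for Rps27 in replicate 1. Over the 80 members it followed the share in copies (Spearman's rho 0.93, both from the same libraries and the same model). It measures how reads were divided under the model and does not cover an error of the model itself.

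Rps27, of the small subunit, shows what the model had to divide. The coding sequences of Rps27 (chromosome 3), of its retrogene Rps27rt (chromosome 9, 114982366 to 114982739) and of the paralogue Rps27l (chromosome 9, 66946086 to 66949516) are given from GENCODE M21. Capitals mark the bases that differ from Rps27.
Rps27: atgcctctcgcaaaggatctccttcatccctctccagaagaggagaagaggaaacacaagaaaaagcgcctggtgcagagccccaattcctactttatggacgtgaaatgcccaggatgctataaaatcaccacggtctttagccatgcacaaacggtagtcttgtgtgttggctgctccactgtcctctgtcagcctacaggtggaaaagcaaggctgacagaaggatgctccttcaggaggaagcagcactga
Rps27rt: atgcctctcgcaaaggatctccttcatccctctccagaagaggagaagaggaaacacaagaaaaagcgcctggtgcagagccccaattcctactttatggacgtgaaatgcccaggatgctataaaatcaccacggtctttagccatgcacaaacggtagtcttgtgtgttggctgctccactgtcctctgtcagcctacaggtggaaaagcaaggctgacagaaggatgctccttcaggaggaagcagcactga
Rps27l: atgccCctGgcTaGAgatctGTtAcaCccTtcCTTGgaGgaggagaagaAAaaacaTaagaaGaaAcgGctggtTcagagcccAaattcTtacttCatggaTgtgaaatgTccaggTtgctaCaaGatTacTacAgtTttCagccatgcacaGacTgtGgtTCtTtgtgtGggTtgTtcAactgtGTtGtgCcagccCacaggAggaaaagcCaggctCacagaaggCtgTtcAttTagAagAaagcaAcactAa

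Rps27 and Rps27rt do not differ in these 255 bases, whereas Rps27l differs in 61. Rps27 was listed at 260 TPM in replicate 1 and 279 in replicate 2, and Rps27rt at 746 and 701. Rps27l, whose posterior SD was 0 in both libraries, had 462 and 454. By the tables as deposited, Rps27l was 1.70-fold above Rps27 (log2 ratio of Rps27 to Rps27l -0.76 ± 0.09). The size of this ratio depends on length, Rps27 being listed at 255 bases and Rps27l at 500. It was -1.15 with full gene length and -2.13 as a ratio of counts. With the copies of Rps27 added, the order turned and the log2 ratio was 1.12.

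The other pairs set the common gene beside a relative, which is known from particular tissues for Rpl3l, Rpl10l and Rpl39l and is annotated as a pseudogene in some others. Rpl3l, the form of adult heart and skeletal muscle, has a coding sequence identity of 73.3% with Rpl3 and lies on chromosome 17 from 24727820 to 24736143. It had 8 counts in replicate 1 and 6 in replicate 2 (0.30 and 0.32 TPM), whereas Rpl3 had 682 and 670 TPM. Rpl3 was thus 2272-fold higher in replicate 1 (95% Poisson interval of the Rpl3l count alone, 1152 to 5259) and 2093-fold in replicate 2 (965 to 5724). These intervals cover counting error only. Rpl3l reads were few in both libraries, and the groups of values lay far apart.

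Rpl10l, known from testis, had 0 counts in both libraries, which with a limit of 3 counts per library puts Rpl10 at least 3549-fold higher in replicate 1 and 2500-fold in replicate 2. Rpl39l, also known from testis, had 4 and 3 counts, and Rpl39 was 1636-fold higher in replicate 1 (644 to 6047) and 911-fold in replicate 2 (312 to 4415). All Rpl39l reads were assigned to a transcript of 805 bases in replicate 1 and to another of 550 bases in replicate 2. The folds differ in part by that length, which the intervals do not cover. Both Rpl10 (84.8%) and Rpl39 (85.3%) share most coding bases with these relatives.

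Rpl22 and Rpl22l1 were expressed side by side. Rpl22 had 219 TPM in replicate 1 and 210 in replicate 2, and Rpl22l1 had 242 and 237, a log2 ratio of -0.16 ± 0.025. Both libraries had Rpl22l1 the higher, but as a ratio of expected counts without length Rpl22 was the higher (0.28), so the order depends on the length correction. Of Rpl22l1, 38.8% ± 1.47 lay in transcripts not annotated protein_coding. Rpl7 was 12.1-fold above Rpl7l1, its distant relative with a coding sequence identity of 54.5%. The log2 ratio was 3.60 ± 0.21, or 1.67 as a ratio of counts, Rpl7l1 being listed at 2606 bases and Rpl7 at 750.

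Rpl36al, outside the symbol rule, had 412 ± 9.57 TPM and stood 1.40-fold above the X-linked Rpl36a (295 ± 7.64). Rps4l and the 2 further Rps3a genes, Rps3a2 and Rps3a3, are annotated as pseudogenes in M21 and were no members. Rps4l had 214 and 199 TPM, 2.00-fold below Rps4x. Rps3a2 and Rps3a3 had 5.18 ± 1.05 TPM and, for Rps3a3, 1.57 and 1.42 beside 707 ± 6.82 for Rps3a1. Of 10 pairs, the 9 with a finite ratio were apart by more than 3 SD, the rule used here.

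**Figure D3:**
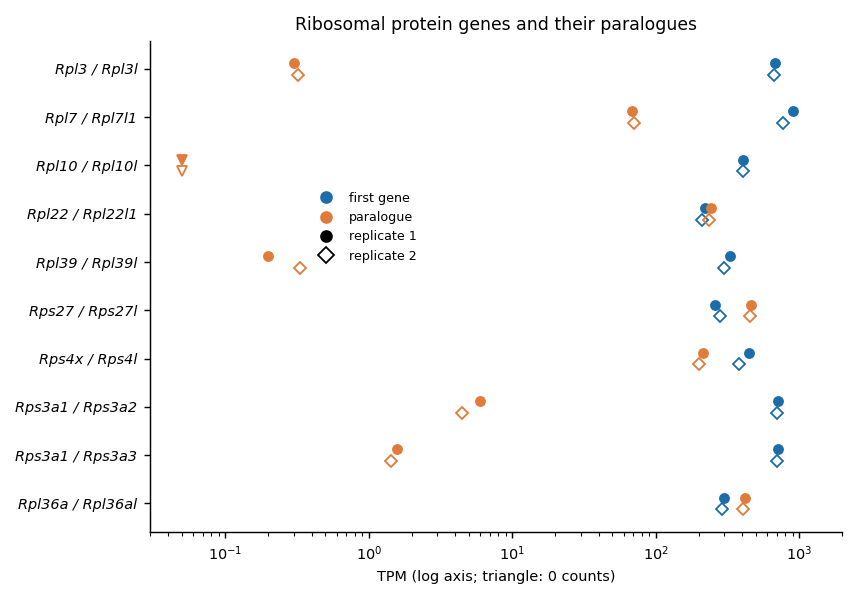
TPM of both genes of the 10 paralogue pairs (log axis), the first gene in blue and the paralogue in orange, replicate 1 filled and replicate 2 open. Rpl3l, Rpl10l and Rpl39l lie below 1 TPM or at 0 counts (triangles), while Rpl22l1, Rps27l and Rpl36al lie level with or above their relatives, an order that turns for Rps27 with its copies added and for Rpl22 without length correction.

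Between the subunits, the medians were close. The large subunit had a median of 456 TPM in replicate 1 and 451 in replicate 2, and the small subunit had 548 and 525. The small subunit was 1.18-fold higher (log2 ratio of large to small -0.24 ± 0.031), in both libraries. Among core members alone it was -0.17 ± 0.033, and -0.24 ± 0.017 with their copies added. The ranges overlapped almost entirely, small subunit genes spanning 146 to 1167 TPM and core large subunit genes 46.8 to 1913.

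The 4 ribosomal genes outside the symbol rule had a median of 417 ± 21.2 TPM. Among them Fau, which encodes Rps30 fused to a ubiquitin-like protein, had 360 ± 25.6 TPM, and Rack1, the scaffold of the small subunit, 422 ± 32.8. Genes that build ribosomes were lower. For RNA polymerase I and its factors (9 genes) the median was 32.0 ± 0.134 TPM, with the highest level in Polr1d (76.0 ± 0.0636), Polr1c, Rrn3 and Ubtf. The 28 genes of nucleolar processing and assembly had 35.5 ± 0.986, led by Npm1 (487 ± 27.8), Ncl (212 ± 6.31), Nop56 (139 ± 10.6) and Nop58 (138 ± 2.76). The 7 genes of export and late maturation had 43.9 ± 1.70, led by Eif6 (107 ± 3.41), and the 4 dedicated chaperone genes of ribosomal proteins 31.1 ± 0.873, led by Bccip (74.6 ± 0.969). All 48 of these genes were detected in both libraries.

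Other mRNAs known to begin with a pyrimidine tract, mostly translation factors (14 genes), stood at a median of 261 ± 6.81 TPM, with the highest levels in Eef1a1 (2896 ± 102), Tpt1 (781 ± 29.2), Hnrnpa1 (409 ± 7.63) and Btf3 (404 ± 23.9). The 10 regulators of their translation had 18.3 ± 1.53, led by the translation repressor Eif4ebp1 at 247 ± 0.163, then Akt1 (74.5 ± 7.34), Rps6kb1 (34.0 ± 3.30), a kinase of Rps6, and Rps6kb2 (21.6 ± 1.09). In the p53 pathway that free Rpl5 and Rpl11 engage, Trp53 had 77.5 ± 2.15 TPM, Mdm2 43.2 ± 3.75, Cdkn1a 31.3 ± 0.0424 and Mdm4 27.4 ± 3.19.

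Members lay on 19 chromosomes, with the most, 14, on chromosome 7, a count not set against the share of all genes there. Rps2 and Rpl3l on chromosome 17 were 5890 bases apart. Rps2 (844 ± 52.4 TPM) and Rpl3l (0.31 ± 0.014) are also on the same strand, neighbours at opposite ends of the set. The X-linked members were Rps4x (447 TPM in replicate 1 and 381 in replicate 2), Rpl10 (404 and 403), Rpl39 (327 and 301) and Rpl36a (300 and 290). Their median was 353 ± 17.4, against 536 ± 23.5 for the 73 autosomal core members, and all 4 lay inside the autosomal range. Copies held 36.2% ± 2.65 of the sum for Rpl10.

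Introns of members house small nucleolar RNAs, guides of ribosomal RNA modification. Of the 80 detected members, 30 (37.5%) contain a snoRNA gene on the same strand, 58 in all, where 1.91% of detected nuclear protein-coding genes do. Rpl4 holds 5 and Rpl13a holds 4. Hosts had a median of 460 TPM and the other detected members 514. The snoRNAs themselves were not measured by libraries selected for longer RNA.

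Promoters of members were read for 3 further motifs on both strands of the 300 bases around the start. CCGGAAG, the core of ETS factor sites, was in 26 of 63 members (41.3%), in 13.5% of protein-coding genes and in 20.5% of those detected. AAGATGG, a YY1-type motif, was in 10 members (15.9%), in 7.31% of genes and in 8.39% of those detected. It shares its first 3 letters with the end of CCGGAAG. The overlapping form was in 0 members and in only 5 of 16317 genes (0.03%). A form so rare cannot set the members apart. GGGGCGG, an Sp1-type motif, was in 14 members (22.2%), against 35.4% of genes and 49.6% of those detected. TATAAA in the 50 bases before the start was found in 1 member, Rpl22l1 (1.59%), in 3.70% of genes and in 1.77% of those detected. Members with and without CCGGAAG had medians of 480 and 418 TPM. A match is only these letters in the window.

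At the level of transcripts, 99.2% of TPM in replicate 1 and 99.3% in replicate 2 lay in transcripts annotated protein_coding in M21 in a median member. This was near the 98.44% and 98.97% of all detected protein-coding genes, and 352 of 371 transcripts in the files matched M21. However, in 12 of 80 detected members (15%) other classes took over 20% in both libraries, where 18.8% of detected nuclear protein-coding genes had as much. Rpl35, of the large subunit, had 95.4% ± 0.714 in such transcripts, mainly a 3-exon processed transcript. Rps20 had 93.9% ± 0.205 in retained-intron transcripts, mainly Rps20-201. Rpl12 had 80.3% ± 1.39, mainly Rpl12-201, annotated as subject to nonsense-mediated decay, and Rpl23 had 64.6% ± 1.36, mainly Rpl23-204. These classes are M21 labels of the transcripts among which the authors' model divided the reads. Intron retention and decay themselves were not measured. For Rpl35 the favoured transcript has 541 bases and the protein_coding one 946.

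Rpl5 had 50.3% ± 1.30 in retained-intron transcripts. This is a share of the level listed at Rpl5 itself, beside the 91.0% and 92.4% of the summed level listed at copies. Rpl12 and Rpl10a (29.4% ± 0.205) also had over 50% in copies. The remaining 9 had at most 10.4% in copies. Rps19 had 30.9% ± 1.42 in other classes, most of it the 3-exon retained-intron transcript Rps19-206 (24.2% ± 0.446). Among the 80 detected members, Rps18 was the one whose leading transcript differed between libraries, Rps18-209, a processed transcript, with 52.6% in replicate 1 and 41.7% in replicate 2, against Rps18-201 with 44.5% and 54.9%. Rpl7 (32.1% ± 2.41), Rpl24 (23.1% ± 1.71) and Rps16 (22.9% ± 3.44) made up the rest with Rpl22l1. For Rpl13a, 73.4% of TPM in replicate 1 lay in transcripts without a match in M21, so its classes are not given.

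**Figure D4:**
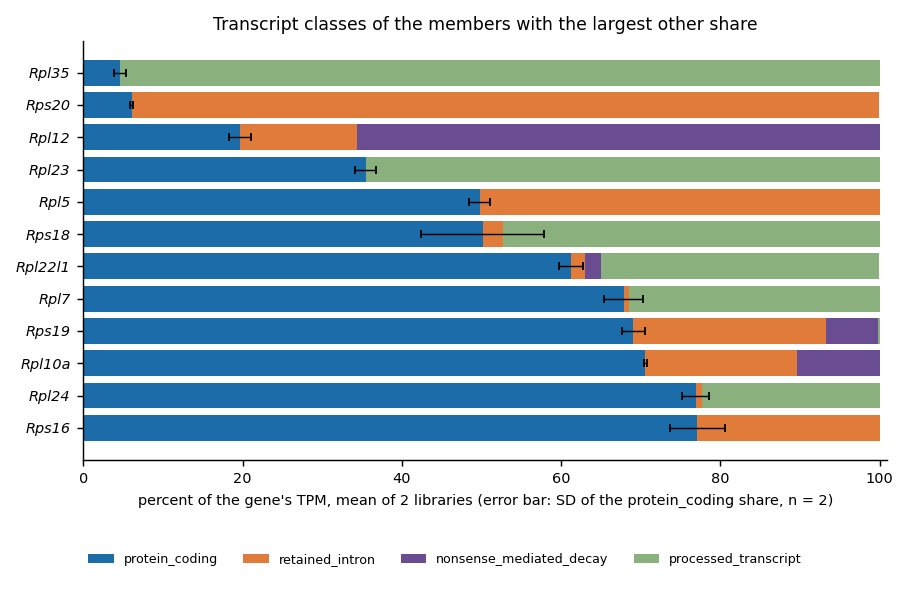
Share of TPM by transcript class (percent, mean of 2 libraries) for the 12 detected members with over 20% outside protein_coding transcripts in both libraries, with the SD of the protein_coding share (n = 2). The share of protein_coding transcripts is lowest in Rpl35 and Rps20, and the libraries lie furthest apart in Rps18.

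Between the libraries the members shifted together by a small amount. On TMM-scaled counts, with 0.5 added, 80 members had at least 20 counts over both libraries. Of these, 0 were 1.5-fold or more higher in replicate 1, where 9.69% of 16621 genes were, and 0 in replicate 2, where 4.84% were. Those 16621 include genes of low count. Of 12103 nuclear protein-coding genes at 1 TPM or more with that count, only 287 passed toward replicate 1 and 185 toward replicate 2. The 0 calls therefore do not set the members apart from other well-detected genes. By any amount, 77 members were higher in replicate 1, where 49.9% of all genes were. Their median log2 ratio of replicate 2 to replicate 1 was -0.16, from -0.40 for Rpl5 to 0.10 for Rps12. Of the 76 members at 100 TPM or more 74 were higher in replicate 1, against 510 of 1068 other protein-coding genes at that level (47.8%). Among the 260 of those no longer than the members' upper quartile it was 187 (71.9%), with a median of -0.06.

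The members furthest toward replicate 1 were Rpl5, then Rpl12 and Rpl29 (both -0.32), Rpl6 (-0.28), Rps15 (-0.28) and Rps4x (-0.27). For Rpl29, of the large subunit, the counts were 10154 and 5954. Only Rps12 (0.10), Rps27 (0.06) and Rpl7l1 (0.01) were higher in replicate 2. Rpl5, Rpl12, Rps12 and Rps27 all have over 50% of their sum in copies, so these ratios depend also on how shared reads were divided. All 4 ribosomal genes outside the symbol rule were higher in replicate 1 as well, by a median of -0.13, and mitochondrial ribosomal protein genes in 52 of 77 cases (median -0.06).

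Marker lists moved between the libraries too. The 5 red blood cell markers, all detected, were all higher in replicate 1 (median log2 ratio -0.29) and summed to 45249 TPM there and 38055 in replicate 2. The 4 liver and yolk sac markers were all higher in replicate 1 by 1.5-fold or more (median -2.23). The 4 endocardial and the 4 mesenchymal markers were all higher in replicate 2 (medians 0.13 and 0.21), as were 5 of 8 cardiomyocyte markers (median 0.05). Of 3 epicardial markers 2 were higher in replicate 1 (median -0.05). No marker of these lists was at 0. The part of cell makeup in the members' shift was not tested.

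**Figure D5:**
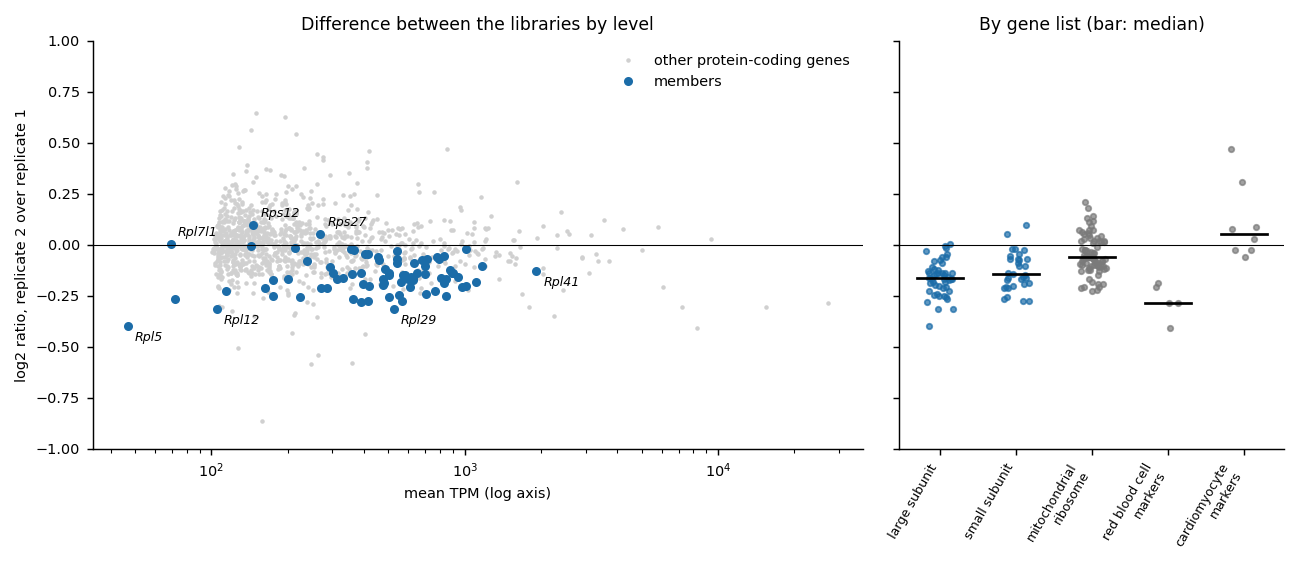
Left, log2 ratio of replicate 2 to replicate 1 (TMM-scaled counts) against mean TPM (log axis) for the 80 detected members (blue) and for other protein-coding genes at 100 TPM or more (grey). Right, the same ratio for the genes of 5 lists, with medians as bars, where members of both subunits lie mostly below 0 without reaching a 1.5-fold difference.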

How the data were processed

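Total RNA of embryonic heart was measured by sequencing in 2 libraries. The authors deposited, per the file headers, expected counts (estimated reads, not normalized), TPM, a posterior SD of the count (used as a score of uncertainty) and the percent of a gene's TPM in each transcript. The README texts name mm10 and annotation M4, while no aligner, quantifier or strandedness of counting is named in the sources. Antisense partners therefore cannot be separated from members: 15 members overlap an opposite-strand gene at 1 TPM or more, above all Rpl28 (Ube2s, 252 TPM).

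Identifiers were matched to GENCODE M21 on GRCm38 (98.0% of 43346). Effective length in the files is 99 bases below length for all 83 members. Expected counts were rounded for TMM scaling (edgeR 4.0.16, R 4.3.3) and DESeq2 1.42.0 size factors. Fold calls were tested on simulated counts, and the copy assignment (blastn 2.17.0) on mutated members. Python 3.11.15, numpy 2.4.6, pandas 2.3.3, scipy 1.17.1 and Biopython 1.88 were used. The members, gene lists and tests were chosen with earlier results of these data known. Named are the 10 highest and 10 lowest members by mean TPM, pair genes, X-linked members, the 6 largest library ratios each way, members past 20% other transcripts or 10% same-named pseudogenes, those nearest the median, members of well-known role, and the 4 highest of a pathway list. Some genes that this rule would name are not reported here by name, though counts and medians include them. Counts cover counting error only. Alternatives were other scalings, filters, folds, lengths, posterior means, added copies, windows and single libraries.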

Additional observations from a re-analysis of the deposited data

How the results depend on the processing

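The number of members at 1 TPM was 80, and at 100 TPM 76 (77 in replicate 1 alone). These numbers held with posterior means, full gene length and single libraries, and were not run with copies added or other scalings. Of members outside the 76, Rpl5 with copies added had 580 and 543 TPM, Rpl27a 481 and 423, and Rpl12 413 and 362. The number of pairs apart (9, or 10 where a pseudocount or posterior mean gives Rpl10l a value) held under all settings run.

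The members' median TPM was 688 when scaled to nuclear protein-coding genes, 583 with same-named pseudogenes and 609 with sequence-matched copies added, and 474 to 518 in single libraries. Their share of TPM was 5.13% of mouse genes and 6.55% of nuclear protein-coding genes without globins (4.13% to 4.43% in single libraries of the whole). Their share of counts was 2.11% and 2.34% (1.83% to 2.04% in single libraries).

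The log2 ratio of large to small subunit medians was -0.30 with full gene length, -0.29 with sequence-matched copies, -0.17 for core members and -0.26 to -0.22 in single libraries, never reversed. The ratio of Rpl22 to Rpl22l1 reversed to 0.28 without length correction, and that of Rps27 to Rps27l to 1.12 with copies added. Leaving out a replicate was not possible for the ratio between libraries. The median over members was -0.11 on TPM and -0.17 to -0.15 under other scalings. At the lowest fold limit tried, 1 member (Rpl5) passed toward replicate 1, against 0 at 1.5-fold.

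The median protein_coding share was 99.1% with posterior means and 99.2% to 99.3% in single libraries. The pyrimidine run was replaced by a C at the start and 4 pyrimidines in an alternative that 13 members met, and 53 met the run in the wide window. The SD of log2 TPM was 0.91 with same-named pseudogenes and 0.71 with sequence-matched copies, and 0.99 to 1.00 in single libraries. Sequence-matched settings, the wide window, the library ratio of members at 100 TPM alone and all alternatives for the SD of log2 TPM were chosen after seeing the data. No paired analysis was possible because the design has a single group.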
